A study of Pan troglodytes with 6 samples.

Results

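The liver profile of the chimpanzee (Pan troglodytes) was taken from the 3 arrays of the series that are titled liver, out of 6 arrays in all. The members described are the 12685 rows of the value table, of 15143, whose platform annotation gives exactly 1 gene symbol, ranked by the mean intensity over the 3 arrays. The top 1% of this ranking holds 126 rows with means of 1509 or more, and the top 5% holds 634 rows with means of 665 or more. The rows carry 12584 different symbols. A further 1780 rows carry several symbols and 678 carry none, and these were left out of the ranking.

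The study put RNA of chimpanzee liver and cerebellum on the Human Exon 1.0 ST array of Affymetrix, whose probes follow the human genome, and its title places it among uses of exon arrays in closely related species. Each liver array holds 1 animal. The animal of replicate 1 was female and 27 years old, and those of replicates 2 and 3 were males aged 37 and 30. No treatment, diet or disease is named for them. RNA was taken with TRIzol, ribosomal RNA was reduced with RiboMinus, and biotin-labelled sense-strand DNA was hybridised. With 1 female and males of other ages, sex, age and animal cannot be told apart. The cerebellum arrays enter nothing below except the constant of 16.8 added before log2, which was taken from all 6 arrays. No test was made: 3 arrays of 1 group give a ranking and its spread.

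The liver makes most proteins of blood plasma, among them albumin, the clotting factors, complement and apolipoproteins. Hepatocytes, its main cell type, also store and release glucose, oxidise fat, turn amino nitrogen into urea, oxidise drugs and make bile acids, and they divide this work along the lobule from the portal vein to the central vein. Bile duct cells, Kupffer cells (the macrophages of the liver), sinusoidal endothelium and stellate cells make up most of the rest. In bulk RNA, fewer cells of a type and less RNA per cell cannot be told apart.

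The values are linear intensities with the same sorted values on every array, so ranks on different arrays are on 1 scale, from -169.95 to 6527 with a median of 96.3. A rank here is a rank of brightness. Probes bind with unequal strength and a chimpanzee base that differs from the human probe dims a row, so the order of rows is not an order of RNA molecules. The files used here give no detection call, and a dim row is therefore given with its value and is not called absent. Where 3 intensities follow a gene name, they are those of replicates 1, 2 and 3 in that order.

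FTL, the light chain of the iron store ferritin, was the brightest row, at 5922, 6527 and 6527. C3, the central complement protein, came next at 5389, 5922 and 5922, followed by FGB, the beta chain of fibrinogen, at 6527, 4194 and 3746. The first 2 rows held rank 1, 2 or 3 on every array, while FGB was the brightest row of replicate 1 and dimmer on the others. FTL belongs to a family with many near-identical copies in primate genomes, and its row may collect signal from them; a second FTL row stood at rank 16.

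Secreted proteins filled most of the next places. CLU, the chaperone clusterin of plasma, measured 4419, 4900.0 and 4900.0. TTR, which carries thyroid hormone, measured 4194, 5389 and 4297, and RBP4, which carries retinol, 4107, 4297 and 5118. The acute-phase protease inhibitor SERPINA3 measured 3812, 5118 and 4537, and the haem carrier HPX 4700.1, 4537 and 4040.2. Values of these 5 genes overlapped, so their order among themselves is not settled by 3 arrays. The remaining places among the 10 highest went to ASS1, an enzyme of the urea cycle, at 4900.0, 4700.1 and 3023, and to ALB, serum albumin, at 3746, 4040.2 and 4107. ASS1 was lower on replicate 3 than on both other arrays, and ALB differed little between the 3.

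**Figure D1:**
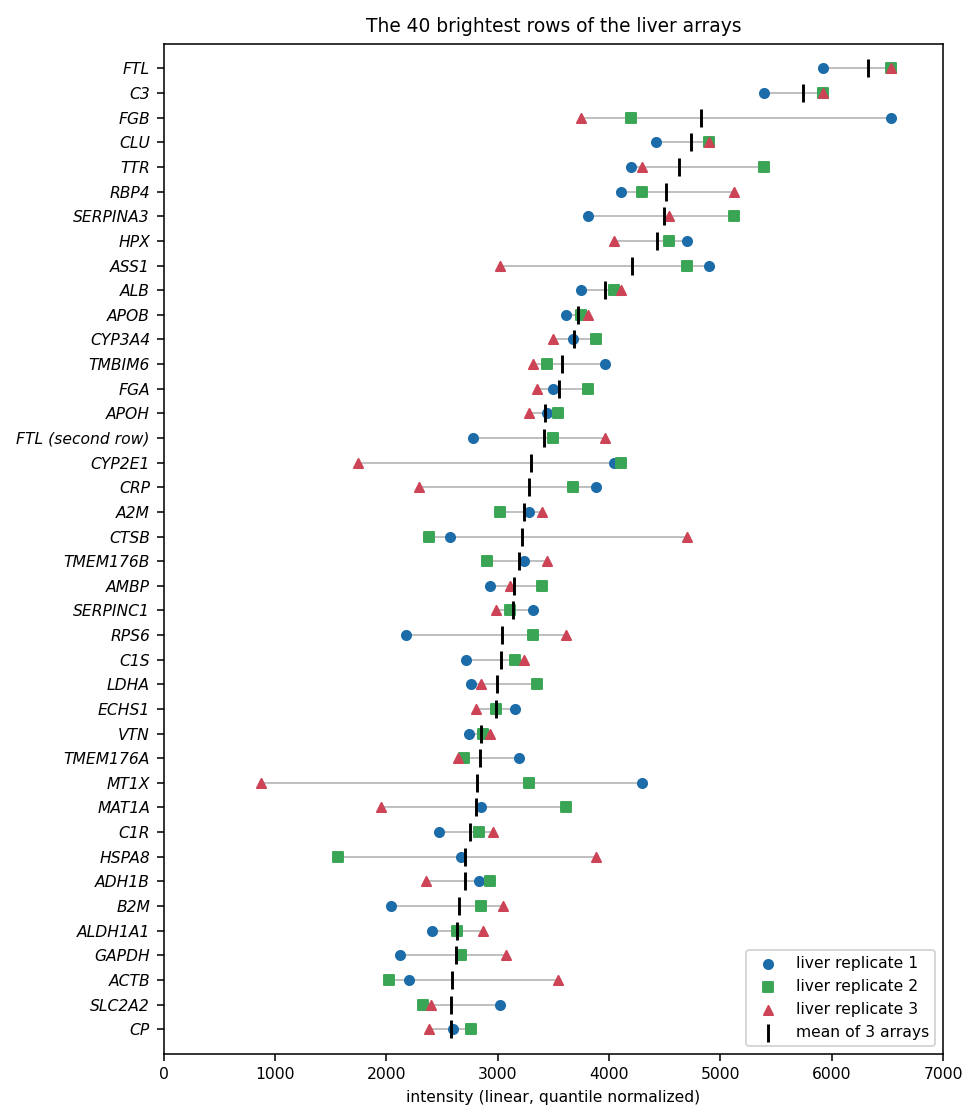
Each line is 1 of the 40 rows with the highest mean in liver, the horizontal axis is linear intensity, the coloured points are the 3 arrays and the black tick is their mean. FTL and C3 have the highest means, most neighbouring rows overlap, and MT1X, FGB, CYP2E1, CTSB and HSPA8 have the widest spread, each with replicate 3 at one end.

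The exact order held poorly even among the brightest rows. Of the 39 neighbouring pairs among the 40 highest rows, 3 were in the same order on all 3 arrays, and in 0 pairs were the values of the one row all above those of the other. Being near the top was more stable: 6 rows were among the 10 highest on all 3 arrays and 14 on at least 1, 13 and 29 rows were among the 20 highest, and 25 and 55 among the 40 highest.

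To say which functions fill the top, 23 lists of genes by function were used, with 661 members measured, or 5.25% of all symbols. Of the 126 rows in the top 1%, 95 rows (75.4%) were in at least 1 of these lists. In the top 5% the share was 295 of 634 rows (46.5%). Counting each row once, under the first list that names it, plasma proteins, clotting factors and complement held 33 rows (26.2%) of the top 1%, and 38 rows (30.2%) with the lipoproteins. In the top 5% these 3 secreted classes held 63 rows (9.94%). The lists were drawn up for liver with earlier results of these data known, so the counts below describe where their members lie and are not set against chance.

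**Figure D2:**
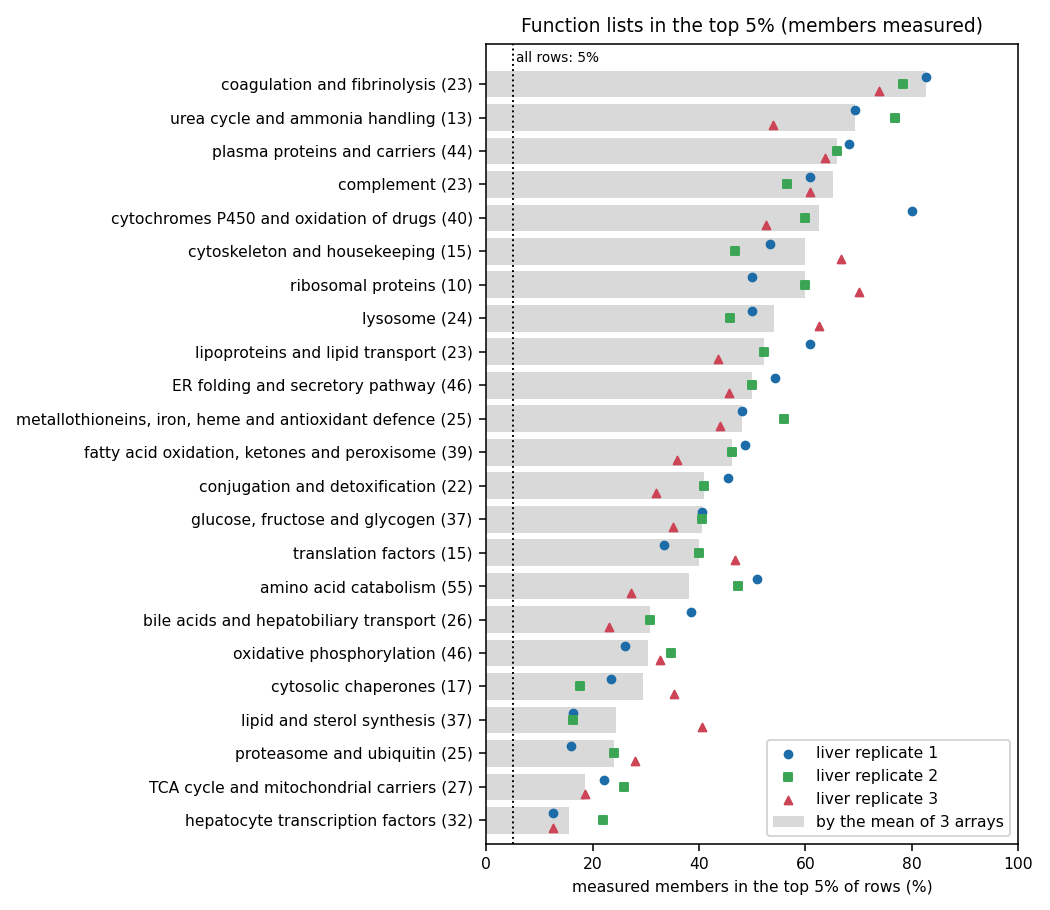
For each function list, with the number of measured members in brackets, the grey bar gives the percent of members in the top 5% by the mean of the 3 arrays and the points give it on each array. Coagulation leads with 82.6%, hepatocyte transcription factors are last with 15.6%, and the dotted line marks the 5% of all rows that the band holds.

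Plasma proteins and carriers had 16 of 44 measured members in the top 1% and 29 in the top 5%. Beside the carriers named above, the list held the acute-phase protein CRP at 3882, 3676 and 2297, the protease inhibitor A2M at 3278, 3023 and 3399 and AMBP, the precursor of alpha-1-microglobulin and bikunin, at 2932, 3399 and 3108. CRP was lower on replicate 3, whereas A2M and AMBP stayed within a narrow band. VTN, vitronectin, measured 2738, 2869 and 2932, the copper carrier CP 2595, 2761 and 2382 and the histidine-rich glycoprotein HRG 2284, 2595 and 2521. All members named so far except CRP were in the top 1% with a log2 range over the arrays below 0.5. The list had 42 of 44 members in the upper 50% of the ranking.

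HAMP, which encodes hepcidin, the hormone that limits iron release into blood, had the widest range among these members. It measured 2903, 2426 and 315, ranks 29, 45 and 2059. It was thus in the top 1% on replicates 1 and 2 and outside the top 5% on replicate 3. LEAP2, another liver-made peptide hormone of the list, lay the other way at 538, 457 and 1139.8.

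Coagulation and fibrinolysis had the highest share of members near the top, with 9 of 23 in the top 1% and 19 in the top 5% (82.6%). The fibrinogen chains FGB and FGA were the brightest, FGA at 3493, 3812 and 3357, and the third chain, FGG, measured 1996, 2227 and 1719. The thrombin inhibitor antithrombin, SERPINC1, measured 3315, 3108 and 2988, protein S, PROS1, 2297, 2310.4 and 2537, and prothrombin, F2, 1507, 1529 and 1525. F2 had the second smallest log2 range of all rows in the top 5%, 0.02. Further down, F9 measured 1503, 1322 and 1181, F10 998, 1051 and 971 and F5 1118, 826 and 699. F5 was brightest on replicate 1, and F9 and F10 were more even. On each array 17 to 19 of the 23 members were in its top 5%.

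Complement had 8 of 23 members in the top 1% and 15 in the top 5%, and all 23 were in the upper 50%. C1S and C1R, the proteases of the first component, measured 2715, 3151 and 3233 for the former and 2473, 2833 and 2959.6 for the latter. The regulators C4BPA and CFI measured 2053, 2203 and 1996 for the former and 2557, 1712 and 1517 for the latter, and the lectin MBL2 1622, 1879.8 and 1521. CFI was brightest on replicate 1, and the other 4 of these genes were even across arrays. Parts of the terminal pore were less even. C6 measured 1411, 1175 and 680.0, C8A 1207, 876 and 579.6 and C8B 1133, 907 and 567, all lowest on replicate 3. C5, whose cleavage starts that step, measured 1646, 1705 and 1580.2.

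Members of the list that macrophages make behaved the other way. C1QC measured 560.1, 608 and 1383 and C1QB 615, 659 and 1122, both highest on replicate 3. Without replicate 3, C1QC moved from 3.11% to 6.38% from the top.

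Among lipoproteins and lipid transport, 5 of 23 members were in the top 1% and 12 in the top 5%. APOB, the structural protein of very low density lipoprotein, measured 3611, 3746 and 3812, and APOH, which binds phospholipid, 3446, 3544 and 3278. ACSL1, which activates fatty acids, measured 2227, 2072 and 1705, APOC2, the cofactor of lipoprotein lipase, 1746, 2053 and 2179, and PLIN2, which coats lipid droplets, 1419.7, 2269 and 2284. APOB and APOH were even across arrays, while PLIN2 was dimmer on replicate 1. APOA2, a main protein of high density lipoprotein, measured 741, 893 and 717. A further 6 listed members were found only in rows with several symbols and were not ranked.

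Cytochromes P450 and oxidation of drugs had 9 of 40 members in the top 1% and 25 in the top 5%. CYP3A4, which oxidises many drugs, measured 3676, 3882 and 3493. It has closely related neighbours in its gene family, as do ADH1B and CYP1A2, and may share signal with them. CYP2E1, which oxidises ethanol, measured 4040.2, 4107 and 1746. The alcohol and aldehyde dehydrogenases ADH1B and ALDH2 measured 2833, 2932 and 2354 for the former and 2457, 2804 and 2096 for the latter, and the retinal dehydrogenase ALDH1A1 2409.9, 2633 and 2869. CYP2E1 was the least even of these, and far dimmer on replicate 3 than on either other array. AOX1, aldehyde oxidase, was also lowest there, at 3108, 2521 and 1684. The number of members in an array's own top 5% was 32 on replicate 1, 24 on replicate 2 and 21 on replicate 3.

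Conjugation and detoxification was less bright, with 1 of 22 members in the top 1% and 9 in the top 5%. The 1 member, NNMT, which methylates nicotinamide, measured 2310.4, 3233 and 1112, high on replicate 2 and low on replicate 3. BAAT, which joins bile acids to amino acids, measured 1417, 1339.9 and 1219, and GLYAT, which joins acyl groups to glycine, 1559, 1426 and 776. Of this list 14 further members were found only in rows with several symbols and are outside the ranking.

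Metallothioneins, iron, heme and antioxidant defence had 6 of 25 members in the top 1% and 12 in the top 5%. After FTL came MT1X, a metallothionein that binds zinc and copper, at 4297, 3278 and 877, rank 7 on replicate 1 and rank 396 on replicate 3. The antioxidant enzymes were even: CAT, catalase, measured 1894, 2179 and 1894, SOD1, superoxide dismutase, 1968, 1909.8 and 1811, and PRDX1, a peroxiredoxin, 1616, 1343 and 1791. TFR2, a sensor of iron-loaded transferrin in hepatocytes, measured 1665, 1503 and 1549. It thus kept its level on the array where HAMP was low.

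Bile acid synthesis and hepatobiliary transport reached the top 5% with 8 of 26 members and the top 1% with 0. CYP27A1 and CYP8B1, oxidases of bile acid synthesis, measured 1131, 1202 and 879.8 for the former and 1259.8, 1151 and 741 for the latter. SLC27A5, which activates bile acids, measured 1022, 1433 and 719.7, and SLC10A1, the sodium-coupled uptake carrier, 1012, 1257 and 516. All 4 were lowest on replicate 3. The export pump ABCB11 measured 528, 408 and 358, and CYP7A1, whose oxidation of cholesterol limits bile acid synthesis, 39.1, 345 and 23.2. CYP7A1 stood at 40.3% from the top, above the median of all values on replicate 2 and far below it on the others.

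Amino acid catabolism had 5 of 55 members in the top 1% and 21 in the top 5%. MAT1A, which makes S-adenosylmethionine, measured 2852, 3611 and 1949, and ALDH6A1, an enzyme of valine breakdown, 1909.8, 2297 and 2125. TAT, tyrosine aminotransferase, measured 2189.6, 1887 and 822, and TDO2, which opens the ring of tryptophan, 2215, 1417 and 894. GNMT, which uses up S-adenosylmethionine, measured 2367, 1684 and 543. Apart from ALDH6A1, these were all lowest on replicate 3, and the number of members in the top 5% was 28, 26 and 15 on the 3 arrays. The count in the top 1% was 8 without replicate 3 and 2 without replicate 1.

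Most of the urea cycle and ammonia handling list was also lowest on replicate 3. It had 3 of 13 members in the top 1% (5 without replicate 3) and 9 in the top 5%. CPS1, which makes carbamoyl phosphate, measured 3077, 2715 and 1503, ARG1, arginase, 1834, 1429 and 849.6, and ASL, which follows ASS1 in the cycle, 1135, 1068 and 486. OTC was dimmer and differently ordered, at 496, 350.4 and 532. GLUL, which makes glutamine from ammonia in cells around the central vein, measured 1864, 2557 and 2203 and was not low on replicate 3.

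Glucose, fructose and glycogen genes held 10 of 37 places in the top 1% and 15 in the top 5%, and all 37 were in the upper 50%. The glycolytic LDHA, GAPDH and ENO1 measured 2761, 3357 and 2852, then 2125, 2673 and 3077, then 1345, 1646 and 2072. GAPDH, which has many processed copies in the genome, and ENO1 were highest on replicate 3. The gluconeogenic members lay the other way: PCK1 measured 2646, 2354 and 376, FBP1 2135, 2125 and 1189 and G6PC1 1819, 2152 and 890.5, all lowest there. SLC2A2, the glucose carrier of hepatocytes, measured 3023, 2325 and 2398, and PYGL, which breaks down glycogen, 1919.7, 1091 and 1760.4. The median difference of the list on replicate 3 was small, -0.09 on the log2 scale, with 13 members highest and 13 lowest on that array.

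Fatty acid oxidation, ketones and peroxisome genes had 4 of 39 members in the top 1% and 18 in the top 5%. ECHS1, an enoyl-CoA hydratase of mitochondria, measured 3151, 2988 and 2804, ACADSB, an acyl-CoA dehydrogenase, 2072, 1919.7 and 1622, and ACAA2, a thiolase, 1872, 1791 and 1268. HADHA and HADHB, the subunits of the trifunctional protein, were alike at 1327, 1016 and 961 for the former and 1324, 1120.0 and 1008 for the latter. CPT1A, which gates entry of fatty acids into mitochondria, stood at rank 609 and was among the 10 least even rows of the top 5%, at 710.4, 1082 and 246. HAO2, a peroxisomal hydroxyacid oxidase, was another, at 1446, 545 and 200.4.

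Lipid and sterol synthesis had 1 of 37 members in the top 1% (2 without replicate 3, and 0 without either other one) and 9 in the top 5%. SC5D, a late enzyme of cholesterol synthesis, measured 1927, 2013 and 895, and PEMT, which makes phosphatidylcholine, 1684, 1485 and 1120.0. SCD, the stearoyl-CoA desaturase, measured 51.0, 163 and 2673, and FASN, the fatty acid synthase, 125, 159 and 1192. SC5D was lowest and SCD and FASN by far highest on replicate 3. SCD had the widest log2 range in the top 5%, 5.31, with rank 8681 on replicate 1 and 35 on replicate 3. Its place at 2.48% from the top rests on that array, and without replicate 3 it was at 47.3%.

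Hepatocyte transcription factors had few members near the top, with 0 of 32 members in the top 1% and 5 in the top 5%, but 31 in the upper 50%. XBP1, a factor of the secretory stress response, measured 1114, 1026 and 1183, DBP, a clock output factor, 635, 919.5 and 818, and CEBPB 724, 723 and 798. PROX1 measured 704, 852 and 561 and CEBPA 258, 469 and 484. PPARGC1A, a coactivator of gluconeogenesis, measured 439, 625 and 111 and was lowest on replicate 3, where PCK1 and G6PC1 also were.

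Lists of general cell machinery also had members near the top. The list for the endoplasmic reticulum and secretory pathway had 4 of 46 members in the top 1% and 23 in the top 5%, led by the lectin chaperone CALR at 2096, 2096 and 2426 and the disulfide isomerase PDIA6 at 2493, 1949 and 2083. The lysosome had 13 of 24 in the top 5%. Its protease CTSB measured 2575, 2382 and 4700.1 and PSAP, precursor of the saposins, 1839, 1827 and 2595, both highest on replicate 3. Without replicate 3, CTSB moved from 0.158% to 0.339% from the top. Oxidative phosphorylation had 0 of 46 members in the top 1% (1 without replicate 1) and 14 in the top 5%, led by ATP5MC2 at 979, 1414 and 1694 and ATP5F1A at 1172, 1327 and 1392.

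Ribosomal proteins can be judged on few genes, since 10 of the 81 listed had a row of their own and 13 more were found only in rows with several symbols. Of these 10, 4 were in the top 1% and 6 in the top 5%. RPS6 measured 2179, 3315 and 3611 and RPL8 1403, 1856 and 2243, both lowest on replicate 1. RPL14, RPL28 and RPS29 were all dimmer than the median row on every array, RPL14 at 82.9, 30.5 and 43.1. A ribosome holds 1 copy of each of these proteins, so rows of 1 complex can differ in brightness many fold. Translation factors had 6 of 15 members in the top 5%, the proteasome 6 of 25, the chaperone list 5 of 17 (with the mitochondrial HSPD1 among them) and the TCA cycle with mitochondrial carriers 5 of 27. Cytoskeleton and housekeeping genes had 9 of 15, among them B2M at 2045, 2852 and 3048 and ACTB at 2203, 2019.6 and 3544. ACTB and ACTG1 are near-identical and can share signal.

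The 31 rows of the top 1% that no function list holds were sorted after their ranks were seen. Of these, 16 encode membrane proteins, 8 regulators, 3 other secreted proteins and 2 enzymes. TMBIM6, a membrane protein of the endoplasmic reticulum known to restrain cell death, was the brightest at 3964, 3446 and 3315. The paired genes TMEM176B and TMEM176A measured 3233, 2903 and 3446 for the former and 3192, 2695 and 2646 for the latter. FN1, which encodes plasma fibronectin, measured 2243, 2165 and 2575, STAT3, which carries the interleukin-6 signal to acute-phase genes, 1903, 1847 and 1594, and the nuclear long RNA MALAT1 2019.6, 1368 and 2019.6. MT1DP, annotated as a metallothionein pseudogene, measured 2013, 2116 and 716. Like MT1X, with which it may share signal, it was lowest on replicate 3.

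The cell types behind the ranking were read from 16 lists of markers. Of 19 measured hepatocyte markers, 15 were in the top 1% and 18 in the top 5%, with a median at 0.221% from the top. The 1 outside was ASGR1, a part of the receptor that takes up glycoproteins from blood, at 591, 715 and 466.

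**Figure D3:**
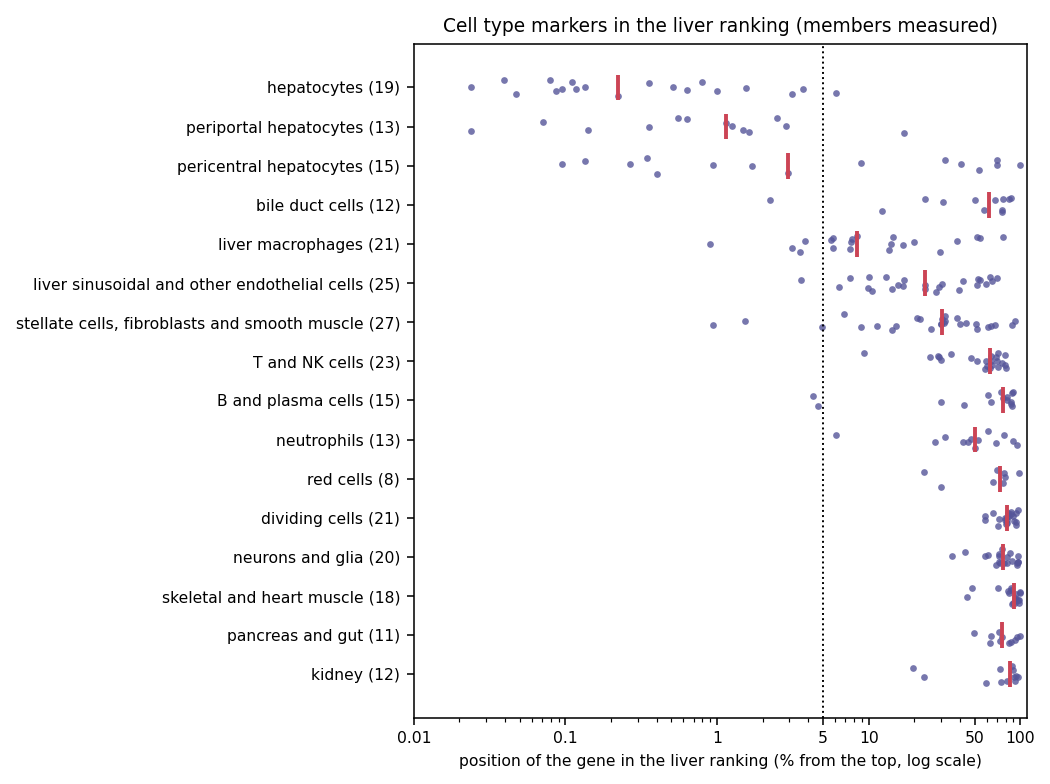
Each point is a marker gene at its position in the liver ranking, in percent from the top on a log scale, the red line is the median of a list and the dotted line marks the top 5%. Hepatocyte markers crowd at the left, macrophage markers centre at 8.42%, endothelial and stellate markers at 23.5% and 30.6%, and markers of tissues outside the liver lie at the right.

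Lists for both ends of the lobule had members in the top 5%, but FGB, CYP3A4 and CYP2E1 among them are also in the hepatocyte list. Bulk values do not place a gene in a zone. Periportal markers had 12 of 13 members in the top 5%, led by FGB, ASS1 and CRP, with HAL, which breaks down histidine, the 1 outside at 404, 327 and 174. Pericentral markers had 8 of 15, led by CYP3A4, CYP2E1 and ADH1B. Other members were dimmer by the mean. The glutamate carrier SLC1A2 measured 541, 881 and 26.6, the ammonia channel RHBG 80.4, 56.8 and 14.7, and AXIN2 and LGR5, which report Wnt signalling, 89.5, 112 and 67.9 for the former and 31.6, 103 and 12.5 for the latter. GSTM3 was near the bottom at 3.88, 5.64 and 4.46, 99.0% from the top, although it was listed as a pericentral marker.

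Macrophage markers had the next highest median after the hepatocyte lists. They had 4 of 21 markers in the top 5% (2 without replicate 3) and 18 in the upper 50%, with a median at 8.42%. CD14, the receptor for bacterial lipopolysaccharide that hepatocytes also make, measured 1343, 1462 and 1927, and CD68, a lysosomal protein of macrophages, 588, 705 and 1034. The Kupffer cell receptors VSIG4, CD163 and MARCO measured 672, 440.5 and 712, then 517, 434 and 634, then 399.8, 219 and 950.0. CD5L, which these cells secrete, measured 425, 418 and 646. The complement part C1QA followed C1QC and C1QB at 340.4, 358 and 876. MARCO, CD68 and C1QA were highest on replicate 3, VSIG4 and CD163 less so.

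Endothelial markers had 1 of 25 in the top 5% (0 without replicate 3), with a median at 23.5% from the top. ENG, a receptor for transforming growth factor beta ligands, measured 465, 592 and 1327, high on replicate 3, and CRHBP and OIT3, found in sinusoidal endothelium, 411, 774 and 542 for the former and 411, 477 and 699 for the latter. DNASE1L3, a secreted nuclease, measured 332, 524 and 498, and the scavenger receptor STAB2 253, 252 and 468. Genes typical of the sinusoid were thus among the brightest members. CDH5, an adhesion protein of all endothelium, measured 161, 186 and 349.

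Stellate cell, fibroblast and smooth muscle markers had 3 of 27 in the top 5% and a median at 30.6%. IGFBP3, which binds insulin-like growth factors, measured 1353, 1477 and 1773, the matrix protein DCN 879.8, 839 and 1979 and SPARC 477, 519 and 1020.1. Without replicate 3, DCN moved from 1.54% to 3.18% from the top. COLEC10, a lectin of resting stellate cells, was even at 488, 439.8 and 515, and RELN measured 463, 389 and 367. The fibrillar collagens were uneven: COL1A1 measured 78.5, 74.5 and 600.2, COL1A2 119, 86.0 and 356 and COL3A1 124, 82.6 and 356. The matrix protein LUM was similar at 69.2, 135 and 582. On replicates 1 and 2 these 4 genes lay near the median of all values, and on replicate 3 well above it.

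Bile duct markers had 1 of 12 in the top 5%, ANXA4 at 926, 877 and 1262, and a median at 62.4% from the top. SOX9 measured 467, 335 and 344, EPCAM 189, 134 and 375, KRT19 44.4, 37.4 and 83.3 and KRT7 -7.75, -2.04 and 127. KRT7 was below 0 on replicates 1 and 2 and above the array median on replicate 3.

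Blood and immune markers were mostly dim. T and NK cells had 0 of 23 markers in the top 5%, and the brightest, CD4 at 412, 329.6 and 662, is also made by macrophages. B and plasma cells had 2 of 15, SDC1 at 747, 613 and 839 and JCHAIN at 734, 624 and 730.2. SDC1 is also a proteoglycan of hepatocytes, while JCHAIN, made by plasma cells, joins secreted antibody chains. The plasma cell markers MZB1 and DERL3 were dimmer, at 262, 169 and 130 for the former and 133, 109 and 135 for the latter. CD79A, of B cells, measured 28.0, 28.0 and 57.4, and 11 of the 15 were under 100 on every array. Neutrophils had 0 of 13, and red cells 0 of 8 with HBB at 107, 202 and 393.

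Lists for dividing cells (0 of 21 in the top 5%, median at 82.2%), neurons and glia (0 of 20, 77.0%), skeletal and heart muscle (0 of 18, 90.4%), pancreas and gut (0 of 11, 76.1%) and kidney (0 of 12, 85.2%) gave no member near the top. Among the neural markers MBP was the highest at 151, 144 and 181. MBP has 2 rows, and the other, with a mean of 17.2, is far dimmer, so that place rests on the choice of the brighter row. The kidney marker SLC22A12 was the brightest member of these 5 lists, at 270.1, 314 and 234.

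Places in the bands were shared by the arrays to a similar extent at both cuts. In the top 1%, 78 rows were shared by all 3 arrays, 40 were on 2 arrays and 64 on 1, so that 61.9% of the rows in the top 1% by the mean were there on every array. In the top 5%, 411 rows were on all 3 arrays, 195 on 2 and 279 on 1, or 64.8% of the rows by the mean. All rows of each band by the mean were in that band on at least 1 array.

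The shares that stayed on every array differed between lists, and this was not tested. A row far above a cut can shift more and still stay, so brightness and steadiness are not separated in these shares. Of the 78 rows in the top 1% on every array, plasma proteins, coagulation and complement gave 29 (37.2%), against 26.2% of the top 1% by the mean. Of the glucose genes 3 of 10 were there on every array, of the amino acid genes 2 of 5 and of the cytochromes P450 7 of 9. In the top 5%, 64.8% of all rows were there on all 3 arrays. Coagulation had 17 of 19 members there, plasma proteins 26 of 29 and the metallothionein, iron and antioxidant list 11 of 12. Complement with 10 of 15 and lipoproteins with 8 of 12 were close to the share of all rows. High shares were not particular to secreted classes. The endoplasmic reticulum list had 19 of 23, cytochromes P450 20 of 25 and oxidative phosphorylation 11 of 14. Lipid and sterol synthesis had 3 of 9, bile acids 4 of 8 and conjugation 5 of 9.

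Replicates 1 and 2 were more alike than either was to replicate 3. They shared 100 rows of the top 1% and 518 of the top 5%, against 85 and 450 for replicates 1 and 3, and 89 and 460 for replicates 2 and 3. Spearman's rho over the 12685 rows was 0.946, 0.900 and 0.927 for these 3 pairs. Within the top 5% it was 0.802, 0.495 and 0.561. These coefficients describe rows on shared arrays, which are not independent points. The rows found in the top 1% of a single array numbered 19 for replicate 1, 15 for replicate 2 and 30 for replicate 3.

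On the log2 scale the median range over the 3 arrays was 0.38 in the top 1%, 0.46 between 1% and 5%, 0.49 between 5% and 25%, and 0.54 between 50% and 75% from the top. It was 0.44 in the dimmest 25%, where the 16.8 added to each value narrows the range. In ranks the spread was small at the top and wide in the middle. The median range was 41 places in the top 1%, 250 places between 1% and 5%, and 1649 places between 50% and 75% from the top, where many rows lie close together. Over all rows it was 9.39% of the ranking. For the 100 symbols with more than 1 row, the best and worst row of a symbol lay a median of 11.5% of the ranking apart. The median range of these rows over the 3 arrays was 9.36%. The 2 measures are unlike, since a range over 3 arrays is wider by construction than a gap that is mostly between 2 rows. Over all rows, the median range over 2 arrays was 4.75 to 6.28%, depending on the replicate left out.

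Some rows of the top 5% hardly moved between arrays. HSPD1, the mitochondrial chaperonin, measured 1226, 1243 and 1240.0, DDOST, a subunit of the enzyme that adds N-glycans, 1229, 1254 and 1250.0, and the helicase DDX3X 1122, 1157 and 1116. The 10 with the smallest range further held F2, the proteoglycan SDC4, CHP1, AUP1, PGRMC2, the mitochondrial carrier SLC25A39 and the RNA-binding ZFP36L1. F2 is a plasma protein, and the others work inside cells or in membranes. Of the 634 rows, 350 (55.2%) had a range below 0.5 on the log2 scale.

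In 77 rows of the top 5% the range was over 1, that is over 2-fold. Such rows were not particular to the top. The range was under 1 in 87.3% of the top 1% and in 88.0% of rows between 1% and 5%. Between 5% and 25% from the top it was under 1 in 85.6%. Replicate 3 was the array farthest from the other 2 in 70 of the 77, lower in 46 and higher in 24. Over all rows of the top 5% it was the farthest in 300 (47.3%). Among the 77, replicate 1 was farthest in 5 and replicate 2 in 2. Counting each gene under the first list that names it, the low side on replicate 3 held 6 genes of amino acid catabolism and 5 of the urea cycle list. Among the 10 widest rows, HAMP, PCK1, MT1X, GNMT and CPT1A have been given above; CTH, which makes cysteine, measured 1458, 2257 and 439, and OAT, ornithine aminotransferase, 1639, 747 and 245. On the high side stood SCD and VNN1, a pantetheinase, at 256, 534 and 1353. Outside the 10, S100A10 measured 773, 509 and 2062, the small heat shock protein HSPB1 859, 499 and 1805, and CD74, the chaperone of class II antigen presentation, 459.8, 461 and 1302. Without replicate 3, CD74 moved from 4.22% to 9.53% from the top.

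**Figure D4:**
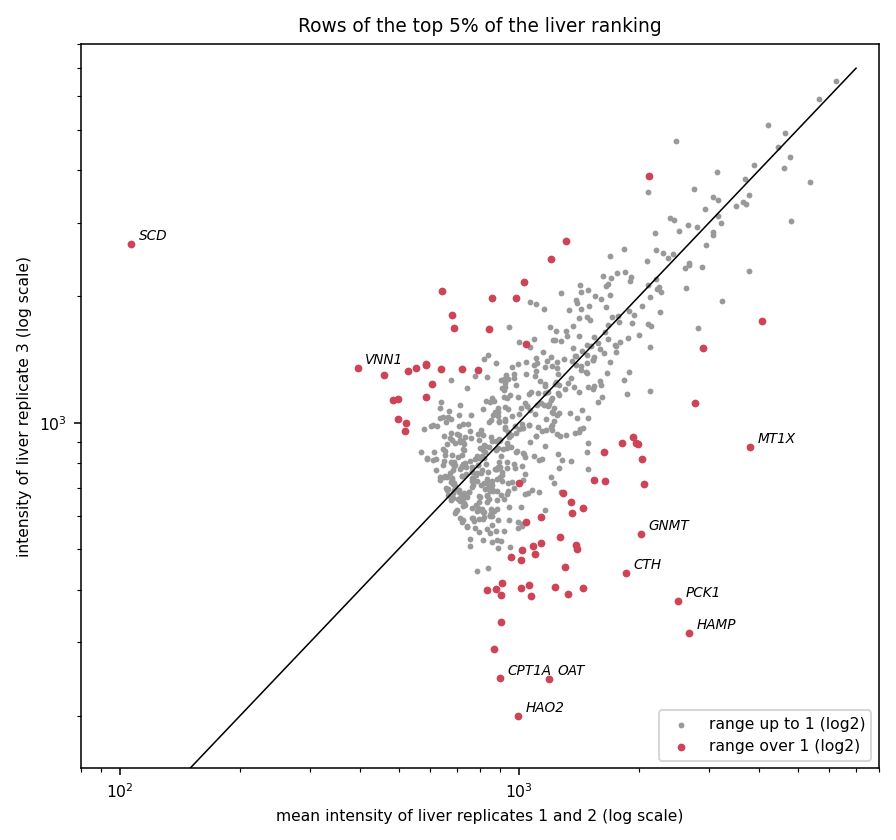
Each point is a row of the top 5%, placed by the mean intensity of replicates 1 and 2 (horizontal, log scale) and the intensity of replicate 3 (vertical, log scale), with the line of equality. The 77 red points have a log2 range over 1, the 10 with the widest range are named, and SCD lies farthest above the line while HAMP, PCK1 and HAO2 lie far below it.

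The same array stood apart in whole lists. For each gene the log2 level on 1 array was compared with the mean of the other 2, with 16.8 added as before. Over all rows the median difference was -0.01, 0.01 and -0.02 for the 3 arrays. On replicate 3 the median was -0.60 for amino acid catabolism, with 47 of 55 members lowest there, -0.92 for the urea cycle list (11 of 13) and -0.48 for fatty acid oxidation (30 of 39). Bile acid genes had -0.36 (17 of 26) and hepatocyte transcription factors -0.42 (19 of 32). Conjugation had -0.29 (12 of 22), cytochromes P450 -0.24 (25 of 40) and glucose genes -0.09 (13 of 37). Among the secreted classes, plasma proteins had -0.12 (20 of 44), coagulation -0.12 (14 of 23), lipoproteins -0.11 (13 of 23) and complement 0.02 (11 of 23). The differences between lists were not tested. The share of all rows lowest on replicate 3 was not counted, so counts near 1 member in 3, as for glucose genes, do not set a list apart. Of the rows in the top 5%, 48.4% lay above the mean of the other 2 arrays on replicate 3.

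Other lists lay above 0 on replicate 3. Lipid and sterol synthesis had a median of 0.77 with 25 of 37 members highest there. Beside SCD and FASN, ACLY, which makes cytosolic acetyl-CoA, measured 188, 278 and 865, FDPS, of the isoprenoid pathway, 235, 333 and 1108, and DHCR7, the last enzyme of cholesterol synthesis, 279, 471 and 1047. INSIG1, which holds back that pathway, measured 436, 593 and 915. These span both fatty acid and sterol synthesis, and 8 members of the list, SC5D among them, were lowest on that array. The count in the top 5% was 6, 6 and 15. The chaperone list had a median of 0.46 (13 of 17 highest), the cytoskeleton list 0.39 (13 of 15) and the lysosome 0.38 (20 of 24). Ribosomal proteins had 0.39 (8 of 10) and translation factors 0.30 (10 of 15).

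**Figure D5:**
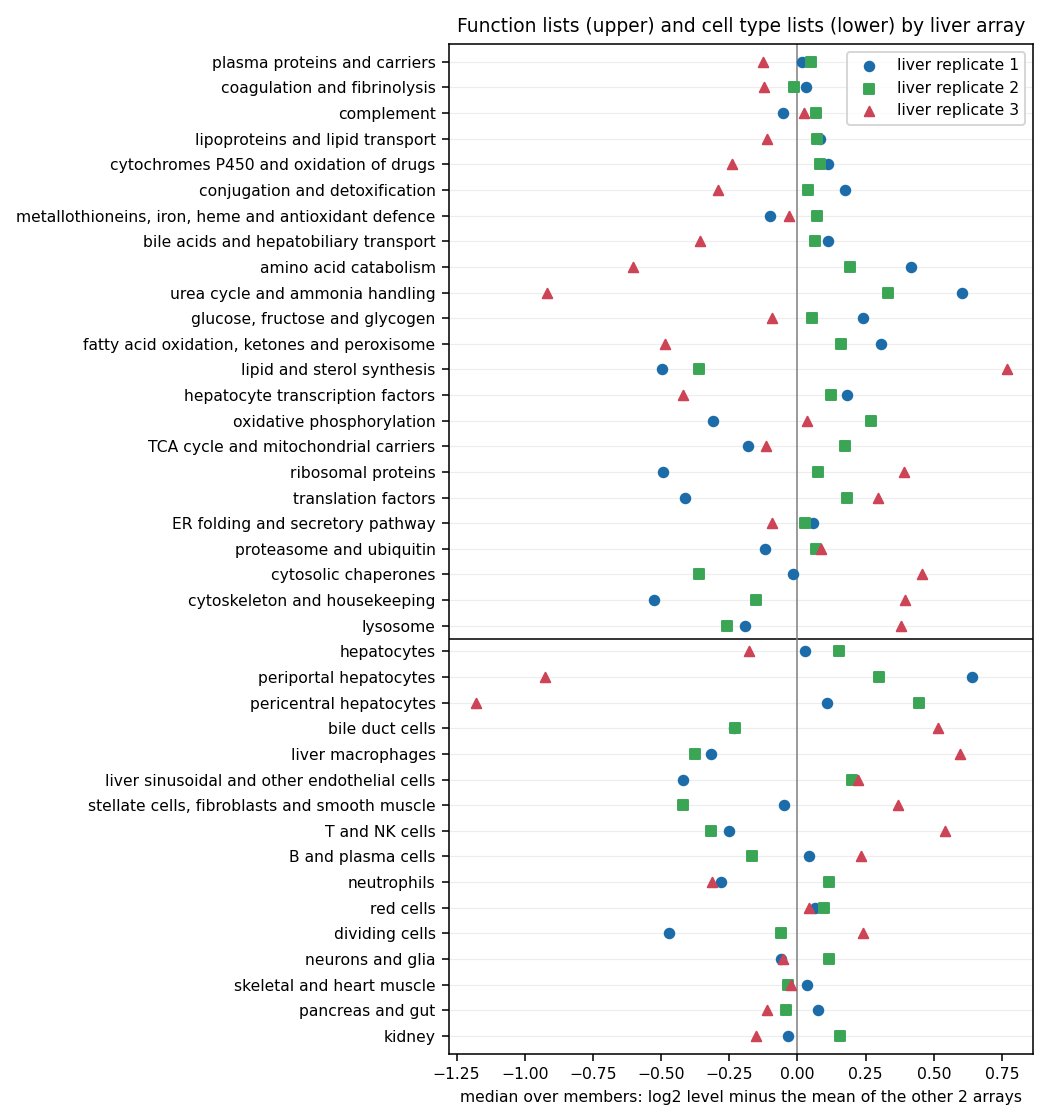
For each list the 3 points give, per array, the median over members of the log2 level minus the mean of the other 2 arrays. Replicate 3 lies far to the left for urea cycle (-0.92), periportal (-0.93) and pericentral (-1.18) genes and to the right for lipid and sterol synthesis (0.77) and macrophages (0.60), while plasma proteins and complement stay near 0 on all arrays.

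Cell type lists were shifted on replicate 3 as well. They share genes with the function lists, such as CPS1, CYP2E1 and C1QC, so the shifts are not separate evidence. On replicate 3 macrophage markers had a median of 0.60 with 17 of 21 highest there, bile duct markers 0.52 (8 of 12), T and NK cells 0.54 (16 of 23) and stellate cells 0.37 (17 of 27). Of these, 13 T and NK markers and 6 bile duct markers were under 100 on every array. B and plasma cells had 0.23 (10 of 15 highest) and dividing cells 0.24 (11 of 21), with 11 and 18 members under 100 on every array. The summed intensity of the 21 macrophage markers was 8671, 8204 and 13371 on the 3 arrays, of the 27 stellate markers 7048, 6623 and 10889.6 and of the 12 bile duct markers 1978, 1817 and 2856, with values below 0 counted as 0. No marker in the macrophage or stellate list was at 0 on any array. The 19 hepatocyte markers summed to 55154, 54306 and 44274. In sum, macrophage, stellate and bile duct markers were thus higher and hepatocyte markers lower on replicate 3. The 5 hepatocyte markers with a log2 range over 1, CYP2E1, CPS1, PCK1, TAT and TDO2, were all lowest there. They weigh heavily in the lower hepatocyte sum and are also in function lists, so that sum does not show a fall of hepatocyte markers in general. The hepatocyte median was -0.18 with 14 of 19 lowest there, while ALB, APOB, RBP4 and VTN were highest there. Endothelial markers had 0.22 (12 of 25 highest), red cells 0.04 (2 of 8) and neutrophils -0.31 (4 of 13). Any part of cell types in the enzyme and lipid differences was not tested.

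The zonal lists did not separate on this array. The periportal list shares ASS1, ASL, ARG1 and CPS1 with the urea cycle list, so its shift partly repeats the one of that list. Periportal markers had a median of -0.93 with 12 of 13 lowest, and pericentral markers -1.18 with 13 of 15 lowest. HSD17B13, a lipid droplet protein, was the periportal exception at 1075, 987 and 2165. GLUL, among the pericentral ones, lay between its values on the other arrays, while SLC1A2, given above, was lowest by far.

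LCN2, which neutrophils store and hepatocytes release in the acute phase, measured 81.6, 205 and 1489, and without replicate 3 it moved from 6.09% to 38.1% from the top. It was the 1 neutrophil marker that entered the top 5% when replicate 1 or replicate 2 was left out. Most other neutrophil markers did not follow: S100A8 measured 73.1, 135 and 64.9 and S100A9 25.6, 61.7 and 20.9, and 9 of the 13 were lowest on replicate 3. CRP, another acute-phase product, was also lowest there, and SERPINA3 lay between its other values.

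Replicates 1 and 2 differed from each other in other lists. Oxidative phosphorylation had a median of -0.31 on replicate 1 (30 of 46 lowest) and 0.27 on replicate 2 (35 of 46 highest). UQCRQ, a small subunit of complex III, measured 745, 1096 and 1271, and COX5A, of complex IV, 431, 788 and 718. Ribosomal proteins had -0.49 on replicate 1 (7 of 10 lowest), translation factors -0.41 (12 of 15) and endothelial markers -0.42 (17 of 25). Ribosomal proteins and translation factors were, as given above, mostly highest on replicate 3. The chaperone list was lowest on replicate 2, at -0.36 (10 of 17), with HSPA8 at 2673, 1568 and 3882 and HSPH1 at 486, 141 and 420.0. With 1 animal an array, differences between animals and between preparations cannot be told apart.

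The borders of the bands were arbitrary in this crowd. Just inside the top 1% lay SURF4, RPL35 and TDO2, with means of 1511, 1511 and 1509, and just outside lay PTP4A1, NAGLU and SERPINF2, each with a mean of 1495 or 1496. Just inside the top 5% lay RHOB, PTBP1 and UPB1, with means of 666, 665 and 665, and just outside lay DNAJB11, ARTN and AGXT2 with 664 each. Rows on both sides had values that overlapped across arrays.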

How the data were processed

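Liver RNA of 3 chimpanzees was measured on human exon arrays. The deposited value table holds linear intensities that the authors had normalized: sorted values are identical on all arrays, and 93 values per array lie below 0. GCOS is the 1 tool named in the submitters' processing notes, with no version; the sources used here give neither the summary and normalization method nor the genome build. Symbols come from the platform annotation, which can be old. Depth does not apply to arrays, and their number limits the precision.

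Rows with 1 symbol were ranked by the mean of 3 intensities (Python 3.11.15, pandas 2.3.3, numpy 2.4.6). The bands were the first 126 and 634 rows. Log2 differences used values below 0 set to 0 plus 16.8, the 10th percentile of the values of all 6 arrays. List members with several rows were read from the brighter row. The 23 function and 16 cell type lists, the members and the rule for named genes (the 40 brightest rows, list leaders, the steadiest and widest rows of the top 5%, and rows at the borders) were chosen with earlier results of these data known; a few further genes were named after their values were seen. No test was made. The ranking code was tested on simulated data. The alternatives changed the mean, the rows ranked, a filter on dim rows, the bands and the replicates. No sequence is shown.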

Additional observations from a re-analysis of the deposited data

How the results depend on the processing

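With the arrays combined by log2 mean, median or mean rank, with other row sets, or without 1 replicate, 110 to 125 of the 126 rows stayed in the top 1% and 581 to 629 of the 634 in the top 5%. Summed over lists, 94 function list memberships lay in the top 1% and 293 in the top 5%; with a top 2% and top 10% instead they were 166 and 422, by construction. The median rank range, 9.39% of rows over 3 arrays, was 4.75 to 6.28% when 1 replicate was left out, where fewer arrays give a narrower range by construction. Among single lists, 21 of 558 counts moved by over 1.5 times, in 9 lists. Amino acid catabolism had 2 to 8 members in the top 1% instead of 5, with 8 without replicate 3. Without replicate 3, the urea list had 5 instead of 3 members in the top 1%, the cytoskeleton list 2 instead of 4, and macrophages 2 instead of 4 in the top 5%. The 1 endothelial marker left the top 5% without replicate 3. Of 1755 recomputed positions of the 195 named genes, 51 moved by more than their spread over arrays, 15 of them without replicate 3. That spread comes from the same 3 arrays, so unsteady genes had the widest limit and the small count does not show that their positions are firm. No paired analysis was possible because no test was made and the 3 arrays form 1 group. Brightness over background is unknown here, which limits what dim rows can show.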

Other observations

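Rows that the ranking left out were also bright. Of the 151 rows in the top 1% of the whole table, 23 carried several symbols and 18 carried none, and of the 757 rows in its top 5% the numbers were 102 and 44. The brightest row with several symbols stood at rank 4 of all rows, with a mean of 4782, and the next at rank 8, with 4500.3. The brightest row with no symbol stood at rank 17, with a mean of 3470.4. The ranking of single-symbol rows thus does not hold every bright liver row. Of the hepatocyte markers listed, 2 of 24 were found only in such rows with several symbols, and of the conjugation list 14 of 49.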
